A study of Mus musculus with 2 samples.

Results

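The 10 genes described here, Rps18-ps6, Gm35082, Gm31557, Pttg1, Tmsb15b1, Pop4, Fam183b, Gldc, Miat and Dlg2, were listed because their RNA levels differed between the libraries of a transgenic and a wild-type mouse. All 10 were found by symbol among the 32534 features counted. Each was followed through 7 groups of cells gated on standard markers (neuronal, basal, sustentacular, microvillar, stromal, endothelial and myeloid) and through barcodes under 100 UMIs, to see whether a difference was met across the tissue or in neurons. A UMI (unique molecular identifier) marks 1 captured transcript. Because the genes were chosen on the contrast between these libraries, their differences are a description and carry no test.

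Single-cell RNA-seq with 10x Genomics 3′ chemistry was done on dissociated olfactory epithelium of 1 animal per genotype. The first was a female aged 9 weeks, hemizygous for Tg(Or8a1-OR1A1,-MAPT/mCherry)D736Feins, a transgene named for the mouse receptor gene Or8a1, the human odorant receptor OR1A1, MAPT and the red fluorescent protein mCherry. The second was a female aged 8 weeks with the genotype WT, whose strain label names a cross of 10G4-V2.2-#7/Jax with the background Bl6/129SF1/J. Strain, age, genotype and library therefore changed together and cannot be told apart, and with 1 animal on each side the spread between animals is unknown. The intervals given are exact 95% intervals for counting error alone.

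The olfactory epithelium renews its sensory neurons throughout life. Horizontal basal cells (HBCs) are its reserve stem cells, and globose basal cells (GBCs) divide to give immediate neuronal precursors (INPs), then immature and finally mature neurons that each express 1 odorant receptor gene. Sustentacular cells support the neurons, microvillar cells are scattered secretory and chemosensory cells, and the stroma beneath holds fibroblasts, vessels and myeloid cells. The 10 genes have no pathway in common. They include a ribosomal protein pseudogene, 2 predicted genes known by number, a long non-coding RNA, and genes of cell division, RNA processing, cilia, amino acid breakdown and the synapse.

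The libraries held 1749 and 1119 cells (transgenic first, here and in all pairs of values), median depths were 14445 and 12994 UMIs per cell, and 1 barcode was called a cell in both. The gates placed 1508 and 890 cells in the 7 groups, and the neuronal group was the largest with 1004 and 528 cells. The 183 and 152 cells that passed the gates of more than 1 lineage were left out. The smallest groups were the wild-type sustentacular and microvillar cells, with 15 and 35. Every marker was over 2-fold higher inside its gate than in the other gated cells for each class of the 7 groups, except 1 of 7 markers of immature neurons in both libraries and 1 of 7 of INPs and of ionocyte-type microvillar cells in the transgenic library. The gates select cells on these same markers, so the excess is largely built in and is no independent check of the classes. The myeloid group differed in makeup, with 78 macrophages, 8 monocytes and 5 neutrophils against 35, 56 and 49. Barcodes under 100 UMIs, which hold RNA freed from broken cells, gave 2143260 and 2308327 UMIs, with the neuronal gene Omp at 1201 and 912 CPM (UMIs scaled to a common total of all UMIs in the group). In the 6 other groups Omp lay between 25.3 and 59.5 CPM.

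Near-identical copies bear on which gene a 3′ read is counted for, so the coding sequences that separate 2 of the genes from their relatives are shown. In GENCODE M21 (build GRCm38), Rps18-ps6 is a single-exon copy on chromosome 13 of Rps18, a gene of 5 exons on chromosome 17 for a protein of the small ribosomal subunit. Their 456 coding bases differ at 4 positions and are 99.1% identical. Counted from 1 at the first base of the start codon, with the base of Rps18 first, the differences are T186C, A337C, G371A and G431A. The 150 coding bases before the stop codon, nearest to the 3′ end that the assay reads, hold 3 of the 4, in capitals here.
Rps18-ps6: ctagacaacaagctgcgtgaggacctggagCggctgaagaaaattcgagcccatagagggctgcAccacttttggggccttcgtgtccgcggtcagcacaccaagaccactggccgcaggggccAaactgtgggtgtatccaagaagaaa
Rps18: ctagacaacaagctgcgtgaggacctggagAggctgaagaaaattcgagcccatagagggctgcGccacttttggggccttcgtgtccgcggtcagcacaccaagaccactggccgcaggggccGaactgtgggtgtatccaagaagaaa

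Tmsb15b1 is an X-linked member of the beta thymosins, small proteins that bind actin monomers. Its 135 coding bases are 97.0% identical to those of its neighbour Tmsb15b2 (4 differences) and 77.0% identical to those of Tmsb15a (31 differences). In RefSeq the start of Tmsb15b1 is also the start of Tmsb15l, a gene model that reads through, so counts can be split among these models. Capitals mark the bases that differ from Tmsb15b1.
Tmsb15b1: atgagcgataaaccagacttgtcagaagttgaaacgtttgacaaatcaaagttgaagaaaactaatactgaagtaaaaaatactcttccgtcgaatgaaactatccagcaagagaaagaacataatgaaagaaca
Tmsb15b2: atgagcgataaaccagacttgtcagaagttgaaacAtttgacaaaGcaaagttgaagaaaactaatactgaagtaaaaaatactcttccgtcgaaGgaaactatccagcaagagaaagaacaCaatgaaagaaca
Tmsb15a: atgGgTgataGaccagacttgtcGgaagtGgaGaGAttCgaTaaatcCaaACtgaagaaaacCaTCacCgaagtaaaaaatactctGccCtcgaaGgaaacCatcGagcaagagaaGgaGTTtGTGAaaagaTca

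In the neuronal group 7 of the 10 were at least 2-fold lower and 3 at least 2-fold higher in the transgenic library. Of the 7228 genes measured there (at least 20 CPM and 50 UMIs in 1 library), 2.92% were 2-fold lower and 1.49% 2-fold higher, and since the genes were picked on this contrast nothing is read from the excess. In the basal group 8 of the genes had at least 10 UMIs over both libraries, of which 3 were 2-fold lower and 2 higher, against 1.73% and 1.34% of all measured genes. In each of the other groups 4 genes had 10 UMIs. The listed genes were counted from 10 UMIs, and the background from 20 CPM and 50 UMIs. These counts and shares are therefore not like for like. In microvillar, stromal, endothelial and myeloid cells only Rps18-ps6 passed the background limit, and in sustentacular cells no listed gene did. In sustentacular cells 2 were lower (background 1.89%) and 0 higher (3.81%). In microvillar cells 2 were lower (4.92%) and 1 higher (5.93%), the latter Pop4. In stromal cells 2 were lower (1.64%) and 0 higher (1.96%). In endothelial cells 3 were lower (1.80%) and 0 higher (1.43%). In myeloid cells, where the makeup differed most, 3 were lower (10.2%) and 1 higher (9.80%). Within the neuronal group the mature neurons again had 7 lower (3.27% of all measured genes) and 3 higher (1.80%), and the immature neurons 6 lower (0.785%) and 3 higher (1.74%) of 9 with 10 UMIs.

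Read by gene, the list parted into 2 sets. Rps18-ps6, Gm35082, Pttg1, Tmsb15b1 and Pop4 were past 2-fold in the same direction in 2 or more groups. For Tmsb15b1 the second group was basal, where 9 of its 12 wild-type UMIs were in INPs, the neuronal precursors. For Gm35082 INPs held 10 of the 17 wild-type basal UMIs. Gm31557, Fam183b, Gldc, Miat and Dlg2 were past 2-fold in their neuronal direction in the neuronal group alone, although for Gm31557 and Fam183b no other group held 10 UMIs. With other gates, classes or filters Miat and Dlg2 were past 2-fold in up to 3 groups, Tmsb15b1 in 1 to 5, and Fam183b and Gldc (lower) in up to 2, so the placing of these 5 genes depends on such choices. Of the 70 pairs of gene and group, 38 held 10 UMIs, 29 of these were past 2-fold, and 31 had an interval that left out equality. The plot of log2 ratios shows both sets.

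**Figure D1:**
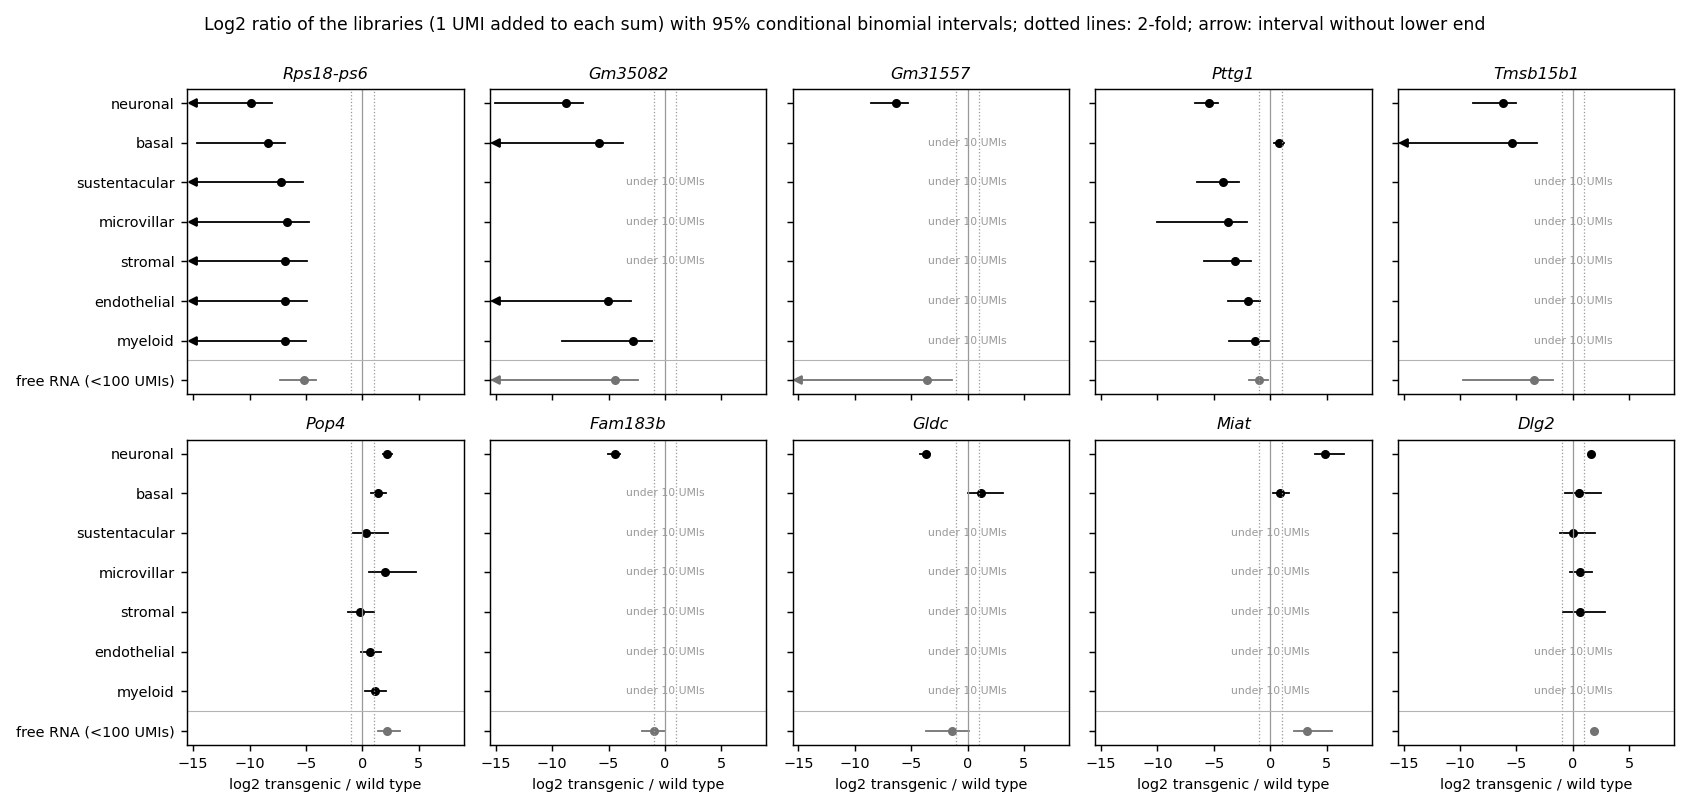
Log2 ratio of transgenic over wild-type CPM of each gene (x axis, 1 UMI added to each sum) in the 7 cell groups and in free RNA (y axis), with 95% conditional binomial intervals. Rps18-ps6 lies left of the 2-fold line in all 7 groups, Pttg1 in 6 of 7 with the basal group at 0.74, and Dlg2 is right of it in the neuronal group (1.59).

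Rps18-ps6 was all but missing from the transgenic library in each cell group. It had 0 transgenic UMIs in 6 of the 7 groups and 1 in the basal group, while the wild-type library held 447 in neuronal, 208 in basal, 29 in sustentacular, 68 in microvillar, 60 in stromal, 134 in endothelial and 209 in myeloid cells. Wild-type levels ran from 63.3 CPM in neuronal to 215 CPM in basal cells. Against a floor of 3 counts over the group, the transgenic level was at least 311-fold lower in neuronal, 48.8-fold in sustentacular, 32.7-fold in microvillar, 37.2-fold in stromal, 37.4-fold in endothelial and 39.1-fold in myeloid cells. In basal cells, with 1 transgenic UMI, the ratio was 659-fold (log2 interval -14.68 to -6.87). Such ratios over 1 to 3 UMIs are plain quotients of CPM, imprecise, and not comparable with the folds set against the floor. In mature neurons 49.8% of wild-type cells held a UMI (45.2 to 54.4%, 232 of 466; 98 of 466 with each cell thinned to 5323 UMIs) and 0 of 752 transgenic cells did, which by a limit of 3 counts allows up to 0.399% of cells with a UMI.

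Copies of the Rps18 sequence did not all differ alike. The parent Rps18 was slightly higher in the transgenic library in every group, with log2 ratios from 0.25 in basal to 0.57 in sustentacular cells. The related pseudogene Rps18-ps5 followed Rps18-ps6: it had 5 transgenic and 109 wild-type UMIs in neuronal, 1 and 55 in basal and 0 and 55 in myeloid cells. Rps18-ps4 had 1 and 0 UMIs in neuronal cells. Among 12686 genes, Rps18-ps5 had the profile most like Rps18-ps6 over 27 points (cell class by library, Pearson r = 0.957). These points share libraries, so the value is a description. Of the 3634 genes measured in 4 or more groups, 0.110% (4) were 2-fold lower in every group in which they were measured, and Rps18-ps6 was 1 of them, while 0.0275% (1) were 2-fold higher in every such group.

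**Figure D2:**
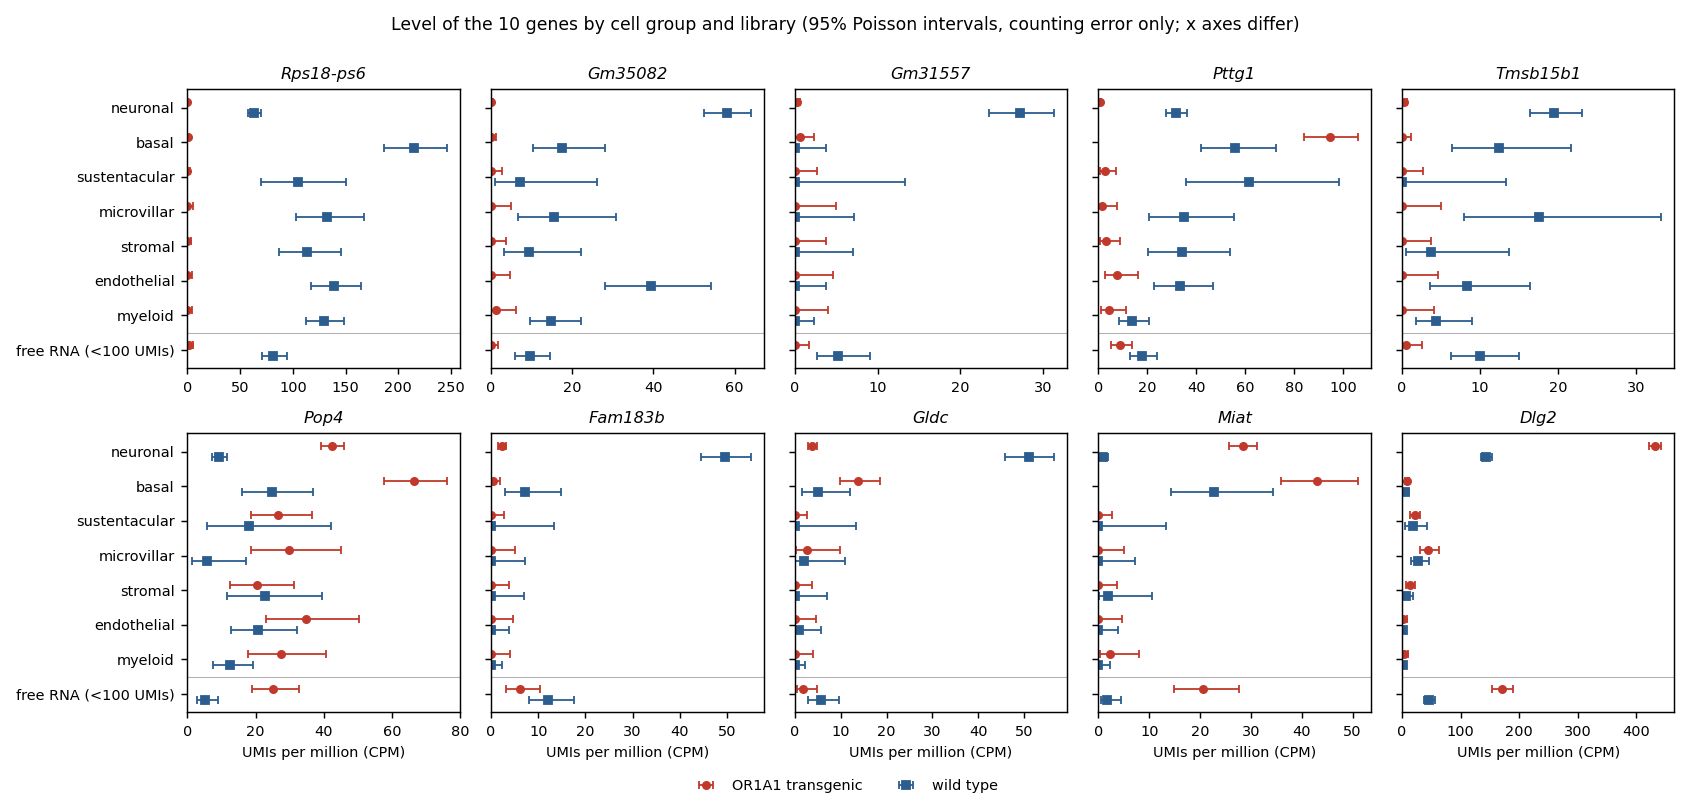
CPM of each gene in the 7 cell groups and in barcodes under 100 UMIs (free RNA), for the transgenic (red circles) and the wild-type library (blue squares), with 95% Poisson intervals and an x axis for each gene. Rps18-ps6 is at or near 0 in every transgenic group, and Pop4 is higher in the transgenic library in neuronal (42.5 against 9.20 CPM) and basal cells but not in stromal cells.

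Gm35082 and Tmsb15b1 were likewise nearly missing from the transgenic library wherever they could be counted. Gm35082, a predicted gene, had 1 transgenic and 410 wild-type UMIs in neuronal cells (0.0677 and 58.0 CPM, an 857-fold ratio with a log2 interval of -15.05 to -7.26). It had 0 and 17 UMIs in basal cells, 0 and 38 in endothelial cells and 1 and 24 in myeloid cells. Of the 24 wild-type myeloid UMIs 13 were in neutrophils and 7 in monocytes, of which the transgenic library had 5 and 8 cells, and macrophages had 1 and 4 (log2 ratio -2.17, -8.47 to 0.49). The level was at least 18.0-fold lower in basal and 10.6-fold lower in endothelial cells. Groups just under the minimum had 0 transgenic UMIs as well, against 8 wild-type UMIs in microvillar and 5 in stromal cells. The wild-type endothelial level was 39.5 CPM. At the ratio of Gm35082 to Omp in mature neurons, the Omp UMIs of that endothelial group go with 0.337 UMIs of Gm35082, and 38 were counted. That comparison covers RNA from neurons only. The highest wild-type level of any class was in erythroid cells, outside the 7 groups, at 198 CPM (22 UMIs in 5 of 8 cells). The transgenic library had 1 such cell. Whether their RNA added to the counts of other groups was not tested.

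Tmsb15b1 had 3 transgenic and 138 wild-type UMIs in neuronal cells (0.203 and 19.5 CPM, a 96.2-fold ratio, log2 interval -8.88 to -5.01) and 0 and 12 in basal cells. In wild-type INPs it reached 33.3 CPM (9 UMIs), and in mature neurons 21.1 CPM (127 UMIs). Microvillar and endothelial cells fell just short of 10 UMIs, with 0 transgenic and 9 and 8 wild-type UMIs. The near-copy Tmsb15b2 differed less, with 52 and 54 UMIs in mature neurons (log2 ratio -0.91, -1.49 to -0.33), and Tmsb15l had 42 and 13 (0.76, -0.09 to 1.86). Tmsb15a had 0 UMIs in every group. The abundant thymosins Tmsb4x (-0.07) and Tmsb10 (0.51) were within 2-fold in mature neurons. How reads that match several of these models were counted is not stated in the labels or headers, so the split between Tmsb15b1, Tmsb15b2 and Tmsb15l is uncertain.

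Pttg1 encodes securin, which holds the protease separase inactive until chromosomes part at anaphase, and is therefore known as a gene of dividing cells. Outside the basal group it was lower in the transgenic library in every group. Neuronal cells had 10 transgenic and 224 wild-type UMIs (0.677 and 31.7 CPM, log2 ratio -5.42, interval -6.63 to -4.64). The ratio was -4.18 in sustentacular (4 and 17 UMIs), -3.78 in microvillar (1 and 18) and -3.14 in stromal cells (3 and 18). It was -1.98 in endothelial (6 and 32) and -1.37 in myeloid cells (4 and 22), where the interval, -3.62 to -0.07, came close to 0. The myeloid value goes with the makeup of that group: of its 22 wild-type UMIs 16 were in monocytes, a class with 8 transgenic cells, and macrophages had 4 and 3 (-0.53, -3.00 to 2.34). In basal cells the order turned, with 290 and 54 UMIs (94.5 and 55.8 CPM, log2 ratio 0.74, 0.34 to 1.21).

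The basal group joins stem cells and dividing progenitors, and Pttg1 parted within it. In GBCs, the cycling cells, the level was 178 and 71.9 CPM (243 and 25 UMIs, log2 ratio 1.26, 0.71 to 1.96). In HBCs it was 6.25 and 37.1 CPM (5 and 13 UMIs, -2.41, -4.41 to -0.99). In INPs the levels were 46.6 and 59.2 CPM (-0.40, -1.21 to 0.58), but 7 of 53 cells held the transgenic UMIs, up to 14 in a cell, against 8 of 13 wild-type cells. In immature neurons the levels were 1.81 and 11.6 CPM, and in mature neurons, which do not divide, 0.275 and 35.2 CPM. Among the neural stages the level was thus highest in GBCs in both libraries, although the wild-type GBC and INP intervals overlapped. The wild-type level was 11.6 CPM or more in each of these stages. The number of GBCs was small, 46 and 11 cells, and a single wild-type GBC held 12 of the 25 UMIs.

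In wild-type mature neurons the Pttg1 UMIs were spread over many cells: 35.4% held 1 or more (31.1 to 39.9%, 165 of 466) and no cell held over 4. In the transgenic library 3 of 752 did (0.399%, 0.0823 to 1.16%). After thinning the shares were 14.4% and 0%. None of the 6 measured partners on the list fixed for securin (Pttg1ip and the cohesin subunits Rad21, Smc1a, Smc3, Stag1 and Stag2) was past 2-fold in neuronal cells, with a median log2 ratio of -0.02, against -0.01 for all measured genes. The mitotic genes of the list had too few UMIs to be measured there. In basal cells 11 of the 12 were measured and none was past 2-fold. Among those that drive or mark division, Ccnb1 (0.45, 0.10 to 0.85), Cdc20 (0.52, 0.15 to 0.93) and Top2a (0.21, 0.06 to 0.37) were higher beyond counting error, with intervals that overlap that of Pttg1, and Cdk1 was at 0.04. The profiles most like Pttg1 were those of the mitotic genes Tpx2 (r = 0.706 over the 27 points) and Birc5 (0.683).

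**Figure D3:**
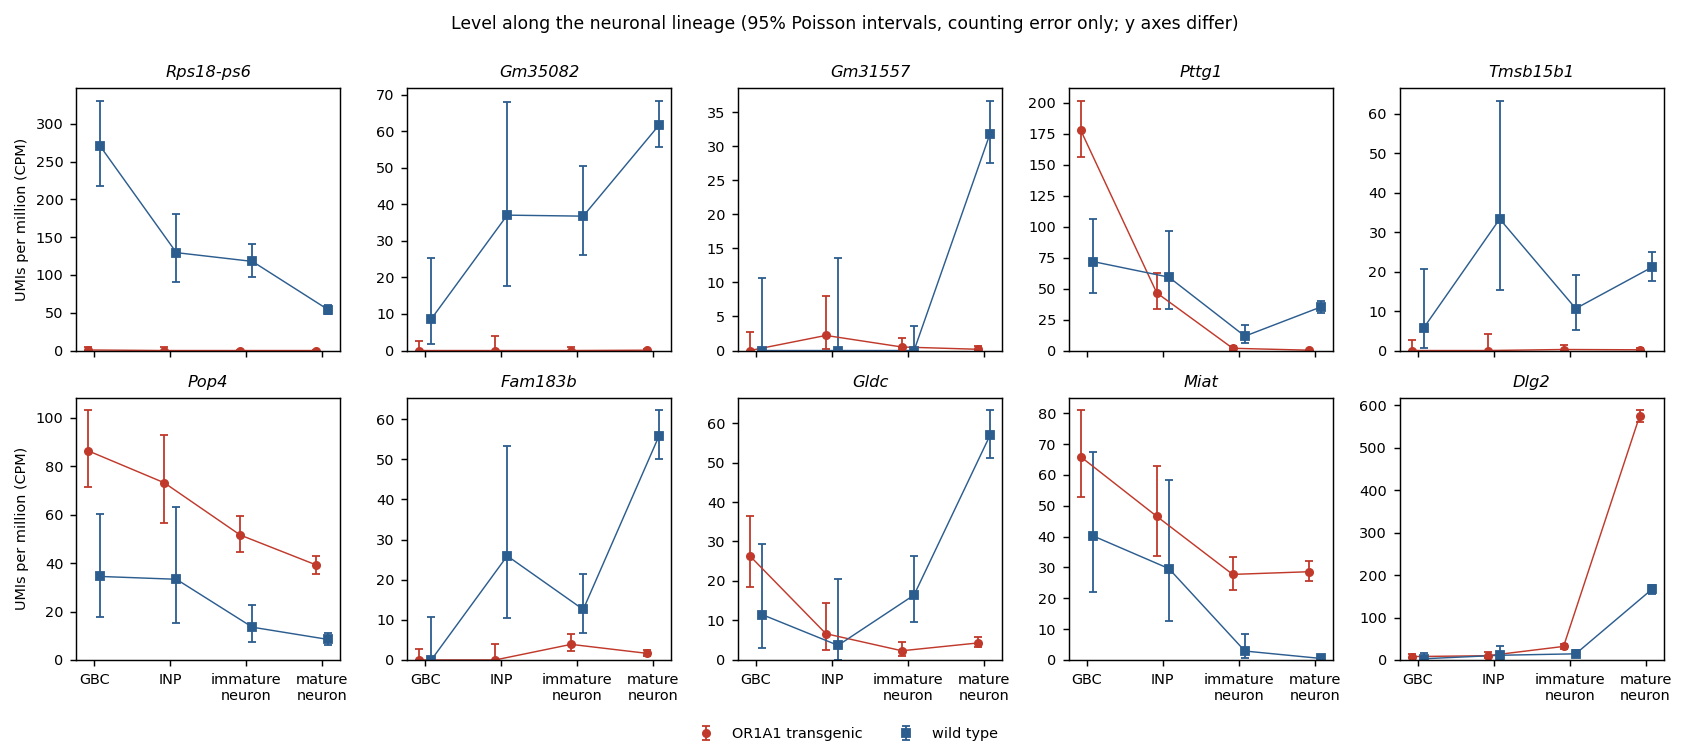
CPM of each gene in GBCs, INPs, immature and mature neurons (x axis) of the transgenic (red) and wild-type library (blue), with 95% Poisson intervals and a y axis for each gene. Pttg1 and Miat are present in the GBCs of both libraries. Pttg1 is higher in transgenic GBCs and lower in transgenic immature and mature neurons. Miat is higher in transgenic immature and mature neurons.

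Pop4, a protein subunit of RNase P and RNase MRP, which process precursors of transfer and ribosomal RNA, was higher in the transgenic library in 4 of 7 groups. Neuronal cells had 627 and 65 UMIs (42.5 and 9.20 CPM, log2 ratio 2.19, 1.84 to 2.60). Basal cells had 204 and 24 (66.5 and 24.8 CPM, 1.37, 0.81 to 2.10), microvillar cells 22 and 3 (1.99, 0.61 to 4.73) and myeloid cells 25 and 20 (1.14, 0.25 to 2.08). Within the myeloid group, whose makeup differed, macrophages had 22 and 5 (1.09, -0.15 to 3.04) and monocytes 3 and 10 (1.36, -1.42 to 3.04). Both of these intervals held 0, and neutrophils had 0 and 5 UMIs. The 3 remaining groups had intervals that held 0: sustentacular (0.33, -0.80 to 2.26), stromal (-0.20, -1.26 to 1.01) and endothelial cells (0.72, -0.14 to 1.65). These intervals leave room for a 2-fold difference in each, and with a gate of 3 markers at 1 UMI or more the stromal ratio was 1.18.

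Along the lineage Pop4 was higher at each stage and declined in both libraries, from 86.3 and 34.5 CPM in GBCs through 73.2 and 33.3 in INPs and 51.6 and 13.5 in immature neurons to 39.2 and 8.46 in mature neurons. In mature neurons the share of cells with a UMI was 42.4% (38.9 to 46.0%) against 10.1% (7.51 to 13.2%), or 17.3% against 3.86% after thinning. Of 10 other subunits listed, 6 were measured in neuronal cells and none was past 2-fold. The largest ratios were 0.38 for Pop5 (0.26 to 0.50) and 0.29 for Rpp21 (0.15 to 0.43), small but above counting error. Of all genes measured there only 2.92% were 2-fold lower and 1.49% higher. Finding none past 2-fold on this or the other short lists therefore says little. The profile most like Pop4 was that of Zfp882 (r = 0.839).

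Fam183b, Gldc and Gm31557 were counted mainly in neural cells and were lower in transgenic neurons. Fam183b, a small gene of ciliated cells, had 18 transgenic and 337 wild-type UMIs in mature neurons (1.65 and 55.9 CPM, log2 ratio -5.01, -5.85 to -4.40). In immature neurons the difference was smaller, with 15 and 13 UMIs (3.89 and 12.6 CPM, -1.71, -2.86 to -0.50). In mature neurons the share of cells with a UMI was 1.86% (14 of 752) against 37.1% (173 of 466), or 0.665% against 22.3% after thinning. Basal cells, just under the minimum of 10 UMIs, had 1 and 7 (-3.66, -9.97 to -1.51), in the same direction as neurons. All 7 wild-type UMIs were in INPs. Sustentacular, microvillar, stromal, endothelial and myeloid cells had 0 UMIs in both libraries. No cell passed the gate for ciliated cells alone, so the cell type best known for this gene was not compared. Foxj1, the regulator of motile cilia (0.14), and Rsph1, a radial spoke gene (-0.40), were measured in neuronal cells and were within 2-fold.

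Gldc, the glycine decarboxylase of the mitochondrial glycine cleavage system, was lower in transgenic neurons. Mature neurons had 47 and 343 UMIs (4.31 and 56.9 CPM, log2 ratio -3.70, -4.19 to -3.28) and immature neurons 9 and 17 (2.33 and 16.4 CPM, -2.75, -4.17 to -1.57). Basal cells had 42 and 5 (13.7 and 5.16 CPM, 1.18, with an interval from 0.07 to above 3), of which GBCs held 36 and 4 (0.91, -0.28 to 3.15). The basal value thus rested on 5 wild-type UMIs, and with a gate of 3 markers at 1 UMI or more it fell short of 2-fold (0.63). Of 9 listed genes of glycine cleavage and of serine and glycine metabolism, 4 were measured in neuronal cells and none was past 2-fold. Mthfd2, a mitochondrial folate enzyme, had a ratio of 0.55, Psph, the last enzyme of serine synthesis, 0.39, and the median was 0.21.

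Gm31557, a predicted gene, had 2 transgenic and 192 wild-type UMIs in mature neurons (0.183 and 31.8 CPM, a 174-fold ratio, log2 interval -10.50 to -5.57). The wild-type UMIs lay in 65 of 466 mature neurons (13.9%, 10.9 to 17.4%), with up to 15 in a cell, and the 5% of cells with most held 66.1% of them. Wild-type immature neurons and the 6 other groups had 0. Of the 65 cells, 63 had a leading odorant receptor (at least 3 UMIs), and these were 47 different receptors, none leading more than 4 of the cells. The most like profiles were those of the receptors Olfr522 (r = 0.994) and Olfr862 (0.993), a likeness that rests on the point of wild-type mature neurons.

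Miat, a long non-coding RNA of nuclei that binds splicing factors, was nearly missing from wild-type neurons but present in wild-type progenitors. Mature neurons had 312 transgenic and 3 wild-type UMIs (28.6 and 0.498 CPM, a 57.5-fold ratio, log2 interval 4.28 to 8.13). Immature neurons had 107 and 3 (27.7 and 2.90 CPM, 9.56-fold, 1.67 to 5.56). In GBCs the levels were 65.9 and 40.2 CPM (90 and 14 UMIs, log2 ratio 0.63, -0.11 to 1.64) and in INPs 46.6 and 29.6 CPM (42 and 8 UMIs, 0.52, -0.46 to 1.95). In the whole basal group the ratio was 0.87 (0.26 to 1.64). Both libraries had less Miat in neurons than in progenitors, and the gap between them was wide in neurons. In GBCs and in INPs taken apart the intervals held equality. In the whole basal group, where HBCs had 0 Miat UMIs in both libraries, the interval lay above 0.

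The share of mature neurons with a Miat UMI was 31.1% (27.8 to 34.6%, 234 of 752) against 0.429% (0.0520 to 1.54%, 2 of 466), or 13.3% against 0.215% after thinning. In the non-neural groups Miat had 0 UMIs in sustentacular, microvillar and endothelial cells of both libraries, 1 UMI in 1 of 48 wild-type stromal cells and 2 UMIs in 2 of 91 transgenic myeloid cells. The wild-type share in mature neurons is thus no higher than such background. The most like profiles were those of Scg2 (r = 0.915), a neuropeptide precursor, and Neurod1 (0.890), a factor of neuronal precursors. Of 8 listed partners and other neuronal long non-coding RNAs, 5 were measured in mature neurons. Snhg11 was 2-fold lower (-1.18, -1.49 to -0.87), and Celf3 (0.65), Srsf1 (-0.27), Sf1 (-0.18) and Malat1 (0.06) were within 2-fold. In the whole neuronal group, used for most other lists, Snhg11 was within 2-fold as well (-0.90, -1.16 to -0.64).

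Dlg2 encodes a scaffold of the membrane-associated guanylate kinase family that anchors channels and receptors at synapses. It had the most UMIs of the 10 in neurons, with 6258 and 1001 UMIs in mature neurons (574 and 166 CPM, log2 ratio 1.79, 1.69 to 1.89) and 123 and 15 in immature neurons (31.9 and 14.5 CPM, 1.05, 0.36 to 2.02). In basal (0.51), sustentacular (0.03), microvillar (0.65) and stromal cells (0.59) each interval held 0. Within the microvillar group, ionocyte-type cells held 32 and 10 of the UMIs (68.9 and 32.0 CPM) and were past 2-fold (1.02, 0.05 to 2.30), from 33 and 12 cells. Microvillar cells had 33 and 14 UMIs, more than the 3.54 and 0.437 that would go with their Omp UMIs at the ratio of mature neurons, while in basal cells 26 and 5 were counted against 13.9 and 0.941.

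The Dlg2 UMIs were unevenly spread over neurons. The median mature neuron had 2 against 1 UMIs, the 95th percentiles were 43.5 and 8, and the highest cells had 215 and 102. At a limit of 20 UMIs, set after the values were seen, 85 of 752 transgenic (11.3%) and 10 of 466 wild-type cells (2.15%) stood above it. They held 68.4% and 42.3% of the Dlg2 UMIs. The cells below the limit, which was drawn on Dlg2 itself, had 207 and 98.2 CPM, given as a description. The 85 cells were not of 1 receptor: 79 had a leading receptor, and these were 63 different ones. Of 11 listed relatives and partners 6 were measured in neuronal cells and none was past 2-fold. Dlg3, a relative (-0.81), and Dlgap3, a partner (-0.42), had the largest ratios.

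The differences of mature neurons were next read within parts of the transgenic library. The deposited feature for the transgene was at 0 UMIs in 397, at 1 or 2 in 141 and at 3 or more in 214 of the 752 transgenic mature neurons. In the 397 cells without a transgene UMI the level was 0 CPM for Rps18-ps6, Gm35082 and Tmsb15b1, 0.168 for Gm31557, 0.337 for Pttg1, 1.18 for Fam183b and 5.56 for Gldc, all far under wild type. It was 39.7 CPM for Pop4, 25.8 for Miat and 631 for Dlg2, all above wild type. The 10 differences were thus present in cells with no counted transgene, although a cell with 0 UMIs may still express it. Dlg2 had the widest range across these cells in CPM, at 631, 702 and 362 CPM with 0, 1 or 2, and 3 or more transgene UMIs.

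Mature neurons of the dorsal zone express Nqo1 and those of the ventral zone Nfix, and all 10 differences kept their direction in both. Cells with 2 or more Nqo1 UMIs numbered 220 and 169, and cells with 0 Nqo1 and 2 or more Nfix UMIs 395 and 268. Gldc had a zonal level: 82.9 CPM in Nfix and 10.9 CPM in Nqo1 cells of the wild type, and 6.87 and 0.327 CPM in the transgenic library. Dlg2 was at 694 and 410 CPM in transgenic Nfix and Nqo1 cells and at 185 and 135 CPM in those of the wild type. Miat went the other way in the transgenic library, with 22.4 CPM in Nfix and 38.0 CPM in Nqo1 cells. Fam183b was at 47.7 and 67.7 CPM in wild-type Nfix and Nqo1 cells. The other 6 genes had like levels in both zones, for example 34.4 and 36.2 CPM for Pttg1 and 61.3 and 64.1 CPM for Gm35082 in the wild type.

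**Figure D4:**
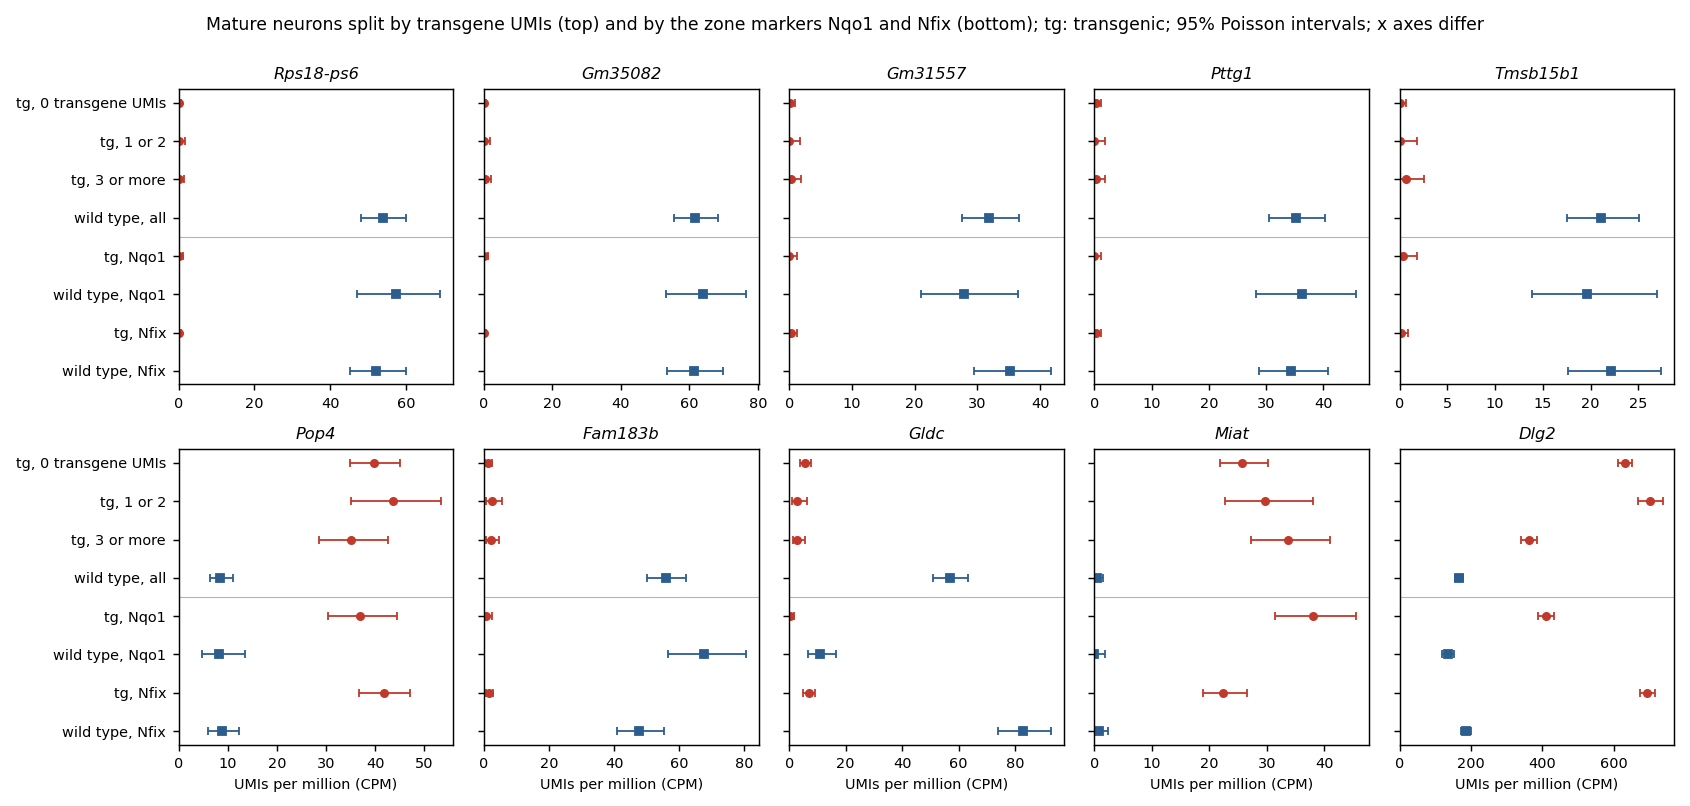
CPM in mature neurons (x axis, 95% Poisson intervals) of transgenic cells (red) with 0, 1 or 2, and 3 or more transgene UMIs beside all wild-type cells (blue), and below the line of cells with Nqo1 or with Nfix in each library. For each gene the transgenic cells without a transgene UMI lie on the same side of the wild-type value as the other transgenic cells.

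In barcodes under 100 UMIs, whose RNA comes from all cells that broke, 5 of the 10 genes were 2-fold lower (background 1.28%) and 3 higher (8.23%). Here too the listed genes were counted from a lower limit than the background. Rps18-ps6 had 4 and 188 UMIs (log2 ratio -5.13, -7.34 to -4.07), Gm35082 0 and 22, Gm31557 0 and 12, and Tmsb15b1 1 and 23. Gldc had 4 and 13, with an interval that held 0 (-1.38, -3.67 to 0.10). Pop4 was at 25.2 and 5.20 CPM, Miat at 20.5 and 1.73 CPM and Dlg2 at 170 and 46.4 CPM. Pttg1 (-0.96, -1.87 to -0.19) and Fam183b (-0.94) fell just short of 2-fold there, so 8 of the 10 differences were also past 2-fold outside called cells. Mitochondrial UMIs made up 37.4% and 51.3% of the UMIs in these barcodes. The CPM of all other genes, the background included, was therefore shifted upward in the transgenic library relative to wild type. Ratios without mitochondrial UMIs were not computed for free RNA, so which genes pass 2-fold there depends on the scaling.

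Of the measured genes nearest to the 10 on their chromosomes most were within 2-fold. With gene order from RefSeq, the 5 nearest measured genes on each side, which lay 1 to 208 genes away, gave 100 neighbours in all, of which 7 were past 2-fold in mature neurons. Of all genes measured there, 3.27% were 2-fold lower and 1.80% higher, so the count of neighbours is a description only. For 8 of the 10 genes no neighbour was past 2-fold. Their largest ratios were 0.59 for Tenm2 near Pttg1, -0.58 for Polk near Rps18-ps6, -0.54 for Ep400 near Miat and -0.52 for Gm33989 near Pop4, followed by -0.50 for Numa1 near Gm35082, 0.47 for Tceal9 near Tmsb15b1, -0.44 for Cadm1 near Gm31557 and 0.40 for Papss2 near Gldc. Fam183b sits among odorant receptor genes, and 6 of its 10 neighbours were past 2-fold, all of them receptors: Olfr328 had 1 and 342 UMIs and Olfr329 had 1 and 243, while Olfr325 had 230 and 0 and Olfr332 had 382 and 0. Since each mature neuron expresses 1 receptor gene, such UMIs can come from few cells. The cells behind them were not counted, so no difference of the locus is read from these receptors. The 4 measured neighbours that are not receptors, Rnf187, H2bu2, H2aw and Guk1, had ratios between 0.03 and 0.28. Near Dlg2, 1 of 10 was past 2-fold, Tenm4, a teneurin of neuronal wiring that lies 36 genes away (1272 and 223 UMIs, 1.65). Cells above 20 Dlg2 UMIs did not carry more Tenm4, with 39.8 CPM against 127 CPM in the other transgenic mature neurons.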

How the data were processed

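The authors deposited raw counts: whole numbers of UMIs for 32534 features in every barcode, empty droplets included. Per the submitters' processing notes, Cell Ranger 6.1.1 and build GRCm39 (mm39) were used, while the file headers name Cell Ranger 4. The 10 genes and the lists beside them were chosen with earlier results of these data known.

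Cells were barcodes past a UMI minimum set in each library (10% of the 99th percentile among its 5000 deepest barcodes, 5827.5 and 5317.7 UMIs) with 500 or more genes and mitochondrial UMIs of 10% or less. To enter a class, a cell needed 2 UMIs or more of 3 or more of that class's markers (143 markers, 20 classes). In a lineage with several classes, the class with the largest share of its markers was taken. Cells passing gates of more than 1 lineage were dropped. Doublets were not called by software. The neuronal group joins immature and mature neurons, and the basal group HBCs, GBCs and INPs.

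UMIs were summed by class and library and scaled to CPM of the class total. For log2 ratios 1 UMI was added to each sum, with a conditional binomial interval. Intervals are Poisson for levels and Clopper-Pearson for shares, at 95%. A fold against 0 UMIs uses a floor of 3 counts over the group. The ratio was tested on simulated data. Named were the 10 genes, the 2 largest neuronal ratios of each list with others that the text turns on, the neighbour with the largest ratio, and the 2 genes with the highest Pearson correlation of log2(CPM + 5), of which 1 is given where the second adds nothing. Fam183a and Qki were not matched in the feature list. Gene order and start windows came from RefSeq (GRCm38.p6, used for order and names) and sequences from GENCODE M21. Work was done in Python 3.11.15 with numpy 2.4.6, scipy 1.17.1, pandas 2.3.3 and, for clusters, scanpy 1.11.5. Alternatives changed the cell and UMI minimums, the mitochondrial limit, the gates, the added count and the fold.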

Additional observations from a re-analysis of the deposited data

Results flagged for a closer look

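Pttg1 differed in opposite directions between cell groups. Its log2 ratio of transgenic over wild-type CPM was 0.74 in the basal group, against -5.42 in neuronal, -4.18 in sustentacular, -3.78 in microvillar, -3.14 in stromal, -1.98 in endothelial and -1.37 in myeloid cells. With 1 library per genotype the difference between groups was not tested. The basal group held 46 and 11 GBCs, 53 and 13 INPs and 53 and 27 HBCs, and Pttg1 was higher in the transgenic library in GBCs (1.26) and lower in HBCs (-2.41), so the value of the group depends on its makeup.

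Gldc also turned, with a log2 ratio of -3.73 in the neuronal and 1.18 in the basal group, the latter from 42 and 5 UMIs. That difference was not tested either.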

How the results depend on the processing

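In the alternatives run, no log2 ratio whose interval left out 0 changed sign. Of 132 counts of groups past 2-fold, 112 stayed within 1.5 times the main count. Of 600 log2 ratios, 588 stayed inside the counting interval of the main value. All 10 alternatives for free RNA did so too. With mitochondrial UMIs up to 20%, the number of groups past 2-fold went from 4 to 7 for Gm35082, from 2 to 4 for Tmsb15b1, and from 1 to 2 for Miat and for Dlg2. With cells of several lineages kept it was 5 for Tmsb15b1, 2 for Miat and 3 for Dlg2. With classes from Leiden clusters it was 5 for Tmsb15b1, 2 (lower) for Gldc, 3 for Miat and 3 for Dlg2. With a gate of 4 markers it was 2 for Fam183b, 2 for Miat and 3 for Dlg2. Without non-neuronal cells holding 2 or more Omp UMIs it was 1 for Tmsb15b1 and 2 for Miat. With equal weight for each cell it was 2 for Miat, and with a lower fixed UMI minimum, or 2 times the main minimum, 2 for Dlg2. With a gate of 3 markers at 1 UMI or more Gldc was past 2-fold higher in 0 groups (basal log2 ratio 0.63). The cause of these changes was not tested. The division into genes that differ in many groups and in neurons alone therefore depends on such choices for Tmsb15b1, Fam183b, Gldc, Miat and Dlg2.

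The share of measured neuronal genes past the fold was 1.65% lower and 0.802% higher at a fold of 4, and 3.52% higher with genes measured from 5 CPM and 10 UMIs. The alternatives by transgene UMIs, Nqo1 and Nfix were chosen after seeing the data. No paired analysis was possible because each group held 1 library. Groups with few cells limit the depth: 15 wild-type sustentacular cells and 11 GBCs.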

Other observations

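Besides Rps18-ps6, 3 genes were at least 2-fold lower in the transgenic library in every cell group in which they were measured: Obp2a (7 groups, median log2 ratio -3.62) and Obp2b (4 groups, -4.04), which encode odorant-binding proteins, and Rpl29 (7 groups, -1.32), a protein of the large ribosomal subunit. Cwc22, a splicing factor, was the gene at least 2-fold higher in all 7 (median 1.84). These 4 genes were named after their values were seen. Their levels in free RNA were not compared, so whether free RNA added to their counts in each group was not tested.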
